A study of Mus musculus with 12 samples.

Results

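Expression was examined for 32 genes of pyruvate entry into mitochondria, the pyruvate dehydrogenase complex (PDH), the citric acid cycle and the enzymes that move pyruvate and malate in and out of it. They were taken by symbol from 3 deposited tables of RNAseq results for mouse corneal endothelium, and all 32 were among the 15838 genes tested. The mice were C57BL/6, all 10 weeks old, and gave 12 libraries: 3 each from Slc4a11-/- (KO) males, KO females, Slc4a11+/+ (WT) males and WT females. KO mice carry a germline deletion of internal exons of Slc4a11, a transporter of the corneal endothelium, in all tissues, and WT mice were their littermates. The tissue was Descemet membrane, the basement membrane of the corneal endothelium, peeled from the cornea with its cells. The labels describe the membranes as pooled and the methods describe them as pairs from both corneas of a mouse, so the p-values measure the spread between these libraries, which may be smaller than that between mice. The tables hold coefficients and no values of single libraries, so neither values nor the sequencing depth of a library can be shown.

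Pyruvate made by glycolysis crosses the inner mitochondrial membrane through a carrier built from MPC1 and MPC2. PDH then turns it into acetyl-CoA. Its kinases switch the complex off by phosphorylation, and its phosphatases switch it on again. Acetyl-CoA joins oxaloacetate to form citrate, which the cycle oxidizes stepwise back to oxaloacetate, and the electrons released go to the respiratory chain. Corneal endothelium is rich in mitochondria, since it pumps ions and water out of the stroma to keep the cornea clear. SLC4A11 is known as an ammonia-sensitive proton transporter of this tissue, which also uses glutamine as a fuel of the cycle.

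Values are log2 fold changes (log2FC), on the scale of log2 CPM (read counts scaled to library size), with the standard error (SE). A gene was called at an adjusted p under 0.05 (limma; Benjamini-Hochberg over all 15838 genes). The genotype coefficient gave the difference of KO from WT males, and the interaction gave the female effect less the male effect. The effect in females and the mean effect of both sexes were derived from them. Slc4a11 itself had a log2FC of -1.83 ± 0.22 (SE) in males and -2.89 ± 0.22 in females, with adjusted p values of 0.000522 and 2.77e-05 (limma). Levels of each group were estimated from the mean level and the coefficients and carry no error. By these estimates Slc4a11 stood at 865 CPM in KO males against 3076 in WT males, and 633 CPM in KO females against 4681 in WT females. All 10 listed markers of corneal endothelium had a value, and their estimated levels summed to between 24300 and 26500 CPM in the 4 groups. That sum includes the fall of Slc4a11, so it does not show whether the others were level. For the mean effect, 7 of the 10 were above 0 and 3 below, with a median of 0.12. Only Slc4a11 was called.

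The 32 genes were expressed at levels above most genes of the tables. Their mean level over the 12 libraries ran from 5.42 CPM for Pdp1 to 388 CPM for Mdh1, with a median of 49.8 CPM, and 30 of 32 lay above the median of all genes. Per kilobase of annotated exon, Mdh1, the cytosolic malate dehydrogenase, stood highest at 151 CPM per kb. It was followed by Ogdh (36.8), the 2-oxoglutarate dehydrogenase, Idh2 (32.0), the mitochondrial NADP-dependent isocitrate dehydrogenase, Mdh2 (29.0), the mitochondrial malate dehydrogenase, and Pdha1 (24.7), the catalytic subunit of PDH. The lowest were both catalytic subunits of the PDH phosphatase, Pdp1 at 1.2 and Pdp2 at 1.78 CPM per kb, and the mitochondrial malic enzymes Me2 at 2.43 and Me3 at 2.58. No error can be given for these mean levels, so neighbours in the order were not compared.

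**Figure D1:**
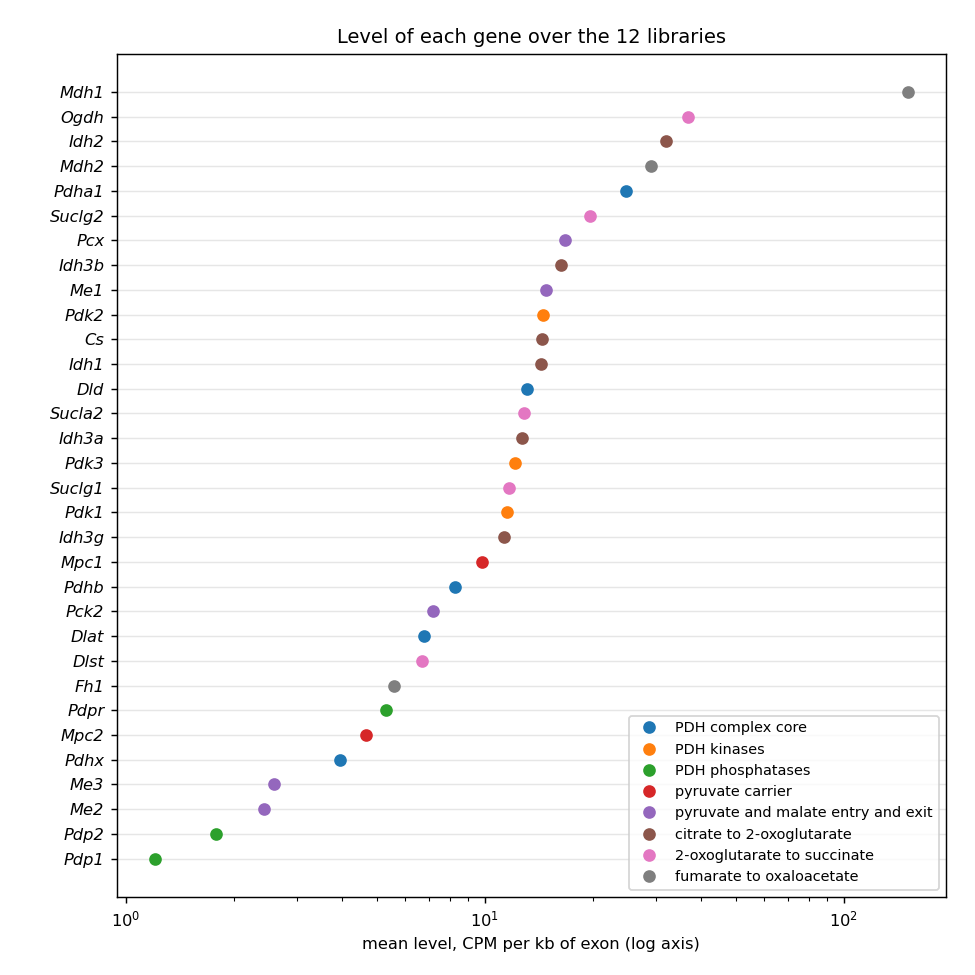
Mean level of the 32 genes over the 12 libraries, in CPM per kb of exon on a log axis, with colors for the step of the pathway. Mdh1 stands alone at 151 CPM per kb, and Pdp1 is lowest at 1.2.

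The question put to these genes was whether loss of SLC4A11 changed them, and whether the change differed between the sexes. In males, 1 of the 32 genes was called, Idh2, which fell. Of all genes tested in males, 5.47% were called, and 3.17% were called lower. At an unadjusted p under 0.05 there were 5 of the 32, beside 21.9% of all genes. In females, 0 of 32 were called (limma), beside 1.42% of all genes, and 6 had an unadjusted p under 0.05, beside 15.9% of all genes. For the mean effect of both sexes, 0 of 32 were called (limma), beside 9.07% of all genes, and 10 had an unadjusted p under 0.05, beside 27.9%. For the interaction, 0 of 32 were called (limma), beside 0.543% of all genes, and 4 had an unadjusted p under 0.05, beside 10.2%. None of the 32 genes was both called and past a log2FC of 1 in either direction, beside 1.91% of all genes in males, 0.587% in females, 2.25% for the mean effect and 0.41% for the interaction.

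The intervals of the 32 genes were narrow enough to bound their changes. The 95% interval of every one of the 32 lay within a 2-fold change in either direction in males, in females and for the mean effect. For the mean effect, the interval reached furthest down for Pdp1, to -0.51, and furthest up for Suclg1, to 0.52. The median SE was 0.14 in each sex and 0.10 for the mean effect. For the interaction, 28 of 32 intervals lay within 2-fold, and the other 4 belonged to Mpc1, Idh2, Pdk1 and Pdp2.

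Idh2, ENSMUSG00000030541, at chr7:80094846-80115392 on the minus strand of GRCm38, makes NADPH in mitochondria while it converts isocitrate to 2-oxoglutarate. Its estimated level was 101.0 CPM in WT males, 68.3 in KO males, 77.5 in WT females and 88.0 in KO females, so KO males were lowest and WT males highest. In males its log2FC was -0.56 ± 0.14 (SE; 95% interval -0.86 to -0.27; adjusted p = 0.0318, limma), a level 0.676 times that of WT. In females the log2FC was 0.18 ± 0.14, with an interval of -0.11 to 0.48 (adjusted p = 0.538, limma). The difference between the sexes was 0.75 ± 0.20 with an adjusted p of 0.12 (limma), so Idh2 was not called for the interaction. The call in males was lost where a single adjustment covered the males, females and interaction contrasts together (adjusted p = 0.0517, limma). It was also lost under the Benjamini-Yekutieli and Holm adjustments.

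Mpc1, ENSMUSG00000023861, at chr17:8282904-8297661 on the plus strand, encodes a subunit of the mitochondrial pyruvate carrier. It was estimated at 23.2 CPM in WT males, 17.3 in KO males, 18.2 in WT females and 24.1 in KO females. By these estimates, which carry no error, KO males lay near WT females and KO females near WT males. The log2FC was -0.42 ± 0.12 in males (interval -0.69 to -0.16; adjusted p = 0.0648, limma) and 0.41 ± 0.12 in females (interval 0.14 to 0.67; adjusted p = 0.118, limma). The interaction was 0.83 ± 0.17 (interval 0.45 to 1.21), with an adjusted p of 0.056 (limma), the smallest of the 32 genes. It was called for the interaction (adjusted p = 0.0366, limma) and in males (0.0491) where the adjustment covered only the 8801 genes with a mean of at least 10 CPM. For the interaction it was also called under a single adjustment over the 3 contrasts (adjusted p = 0.027, limma). Of its 2082 exon bases, 480 overlap those of 4930506C21Rik on the opposite strand, which stood at 1.12 CPM with log2FC of -0.64 in males and -0.43 in females, neither called. Whether reads were counted by strand is not given in the sources used here. Mpc2, the partner subunit of the carrier, had 0.19 ± 0.11 in males and 0.29 ± 0.11 in females, with an interaction of 0.09 ± 0.16.

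The promoter windows of both genes are shown because these genes had the smallest p-values for the interaction. Each holds 250 bases before and 50 bases after a RefSeq start site of GRCm38.p6, 5′ to 3′ on the strand of the gene. Capitals mark a match to a searched motif. The window of Mpc1 is chr17:8283537-8283836 on the plus strand, the upstream one of 2 RefSeq starts, and that of Idh2 is chr7:80115301-80115600 on the minus strand. The Mpc1 window lies downstream of the first base of the gene span given above, 8282904.

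Mpc1: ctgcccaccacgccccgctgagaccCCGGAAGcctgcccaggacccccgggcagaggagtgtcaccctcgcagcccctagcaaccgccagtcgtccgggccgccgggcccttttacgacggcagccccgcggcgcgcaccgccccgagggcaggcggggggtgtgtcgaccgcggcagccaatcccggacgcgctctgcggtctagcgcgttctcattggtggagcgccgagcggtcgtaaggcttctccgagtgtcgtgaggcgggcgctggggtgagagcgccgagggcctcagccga

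Idh2: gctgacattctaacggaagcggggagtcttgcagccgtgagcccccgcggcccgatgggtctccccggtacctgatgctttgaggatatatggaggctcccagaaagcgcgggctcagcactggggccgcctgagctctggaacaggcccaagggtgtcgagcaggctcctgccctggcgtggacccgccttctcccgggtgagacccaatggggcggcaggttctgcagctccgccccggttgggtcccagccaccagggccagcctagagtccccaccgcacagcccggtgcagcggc

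Both strands were searched for the element of estrogen-related receptors TNAAGGTCA, the NRF1 core CGCATGCG, the hypoxia response core ACGTG and the ETS core CCGGAAG, which factors such as GABPA recognize. The Mpc1 window held the ETS core, starting at base -225 from the start site, and none of the other motifs. None of the 4 was in the Idh2 window. RefSeq promoters were matched for 29 of the 32 genes. The ETS core was in 4 of these 29 (Dlst, Idh3b, Idh3g and Mpc1) and in 9.14% of all 27025 promoters, and the hypoxia core was in 9 of 29 and in 19.6%. The receptor element and the NRF1 core were in 0 of 29, and in 1.24% and 1.92% of all promoters. A match describes the letters of the window and shows no binding. The 29 windows had a median of 62.0% G and C and 23 CpG sites, against 52.7% and 7 over all promoters. Mpc1 had 39 CpG sites and Idh2 had 20.

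**Figure D2:**
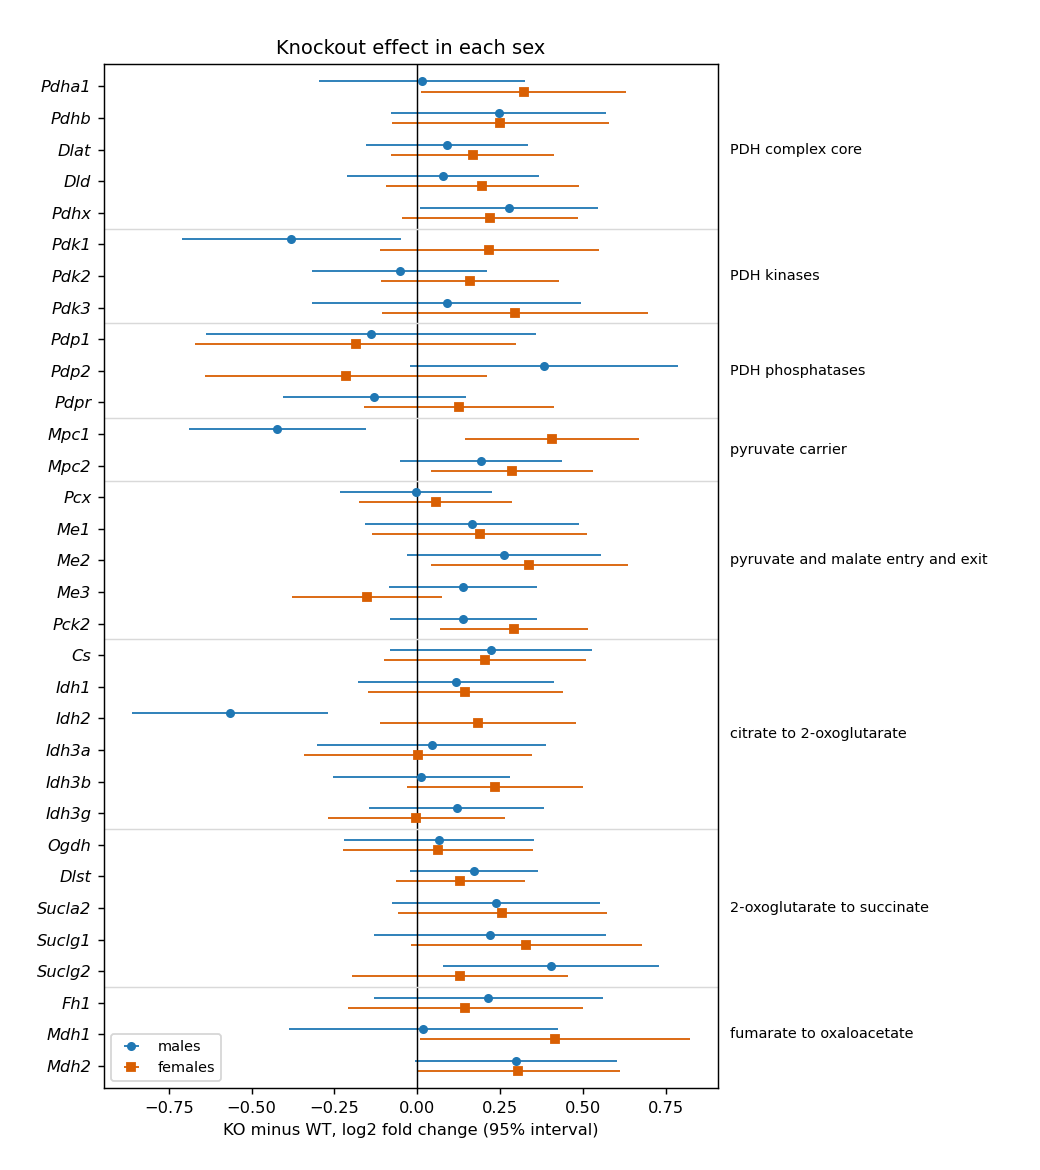
Knockout effect for the 32 genes by step of the pathway, as KO minus WT log2FC in males (circles) and females (squares) with 95% intervals. Intervals of both sexes are separate for Mpc1 and Idh2, where the male value is negative, and overlap for the other 30 genes.

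The 5 genes of the PDH core had positive values in both sexes, and none was called. Pdha1 and Pdhb encode the decarboxylase, Dlat the acetyltransferase, Dld the dihydrolipoamide dehydrogenase that PDH shares with other complexes, and Pdhx the protein that binds it to the core. Their log2FC ran from 0.01 (Pdha1) to 0.28 (Pdhx) in males and from 0.17 (Dlat) to 0.32 (Pdha1) in females. For the mean effect, Pdhx had 0.25 ± 0.09 (adjusted p = 0.0885, limma) and Pdhb 0.25 ± 0.11 (adjusted p = 0.151, limma). Pdha1 shares 603 of its 3734 exon bases with Map3k15 on the opposite strand, which stood at 2.34 CPM.

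The kinases that switch PDH off, Pdk1, Pdk2 and Pdk3, had log2FC of -0.38, -0.05 and 0.09 in males. In females the values were 0.22, 0.16 and 0.30, and none was called in either sex. Pdk1, ENSMUSG00000006494, at chr2:71873224-71903858 on the plus strand, was estimated at 100.7 CPM in WT males, 77.3 in KO males, 84.7 in WT females and 98.5 in KO females. KO males were again lowest and WT males highest. Its log2FC in males was -0.38 ± 0.15 (adjusted p = 0.166, limma), and its interaction was 0.60 ± 0.22 (interval 0.13 to 1.06; adjusted p = 0.311, limma).

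Of the genes that switch PDH on, the phosphatase Pdp2 had the opposite pattern. It had 0.38 ± 0.19 in males and -0.21 ± 0.20 in females, and its interaction was -0.60 ± 0.27 (adjusted p = 0.479, limma). Its levels were low, between 8.80 and 11.5 CPM in the 4 groups. Pdp1, the other phosphatase, had -0.14 ± 0.23 in males and -0.19 ± 0.23 in females. Pdpr, the regulatory subunit, had -0.13 ± 0.13 and 0.13 ± 0.13.

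**Figure D3:**
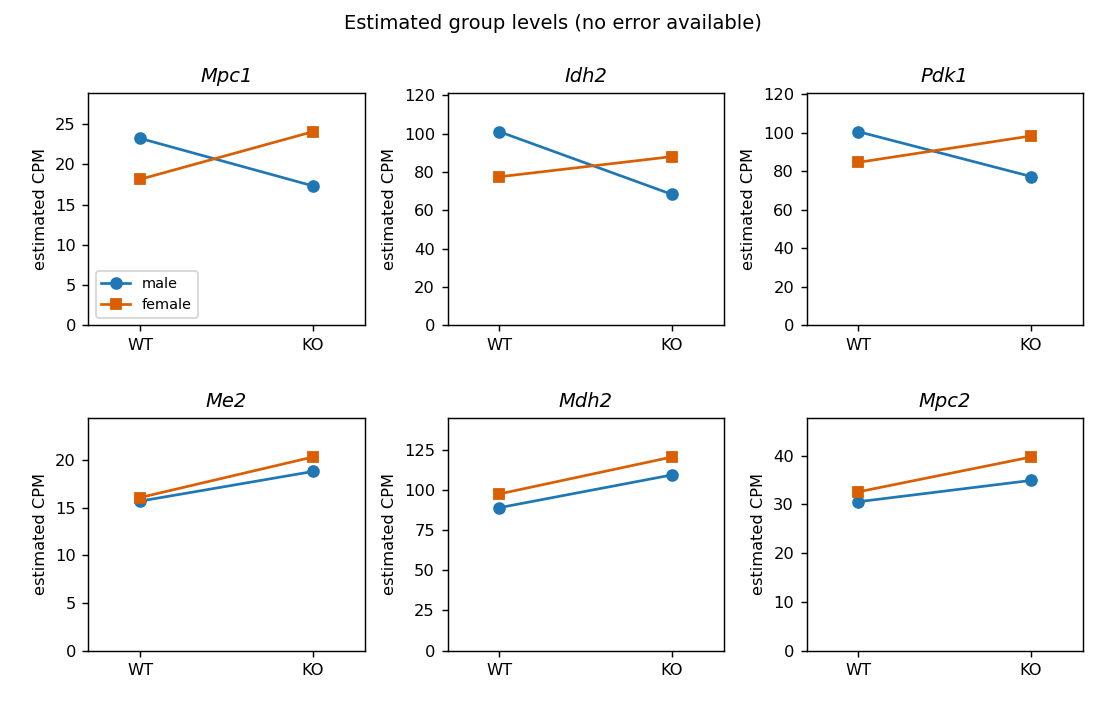
Estimated levels in CPM of the 3 genes with the smallest p-values for the interaction (Mpc1, Idh2, Pdk1) and for the mean effect (Me2, Mdh2, Mpc2), in WT and KO males (circles) and females (squares); no error can be given for them. In the upper row the KO point lies below WT in males and above WT in females, and in the lower row it lies above WT in both sexes.

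Among the enzymes by which pyruvate and malate enter and leave the cycle, none was called in either sex. Pcx, the pyruvate carboxylase that makes oxaloacetate, had the log2FC nearest to 0 in males (-0.005 ± 0.11), with 0.06 ± 0.11 in females. Me2, a mitochondrial malic enzyme that turns malate to pyruvate, had a mean effect of 0.30 ± 0.10 (interval 0.09 to 0.51; adjusted p = 0.0673, limma), the smallest adjusted p of the 32 genes for that effect. Its estimated levels were 15.7 CPM in WT males, 18.8 in KO males, 16.1 in WT females and 20.3 in KO females. Me1, the cytosolic malic enzyme, had a mean effect of 0.18 ± 0.11. Me3 had 0.14 in males and -0.15 in females. Pck2, which makes phosphoenolpyruvate from oxaloacetate in mitochondria, had 0.29 ± 0.10 in females (adjusted p = 0.183, limma) and a mean effect of 0.22 ± 0.07 (adjusted p = 0.0776, limma).

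In the steps from citrate to 2-oxoglutarate, Idh2 stood apart from the other 5 genes, whose log2FC in males ran from 0.01 (Idh3b) to 0.22 (Cs). Citrate synthase, Cs, had a mean effect of 0.21 ± 0.10 (adjusted p = 0.183, limma). Idh1, the cytosolic NADP-dependent enzyme, had 0.12 in males and 0.15 in females. The 3 subunits of the NAD-dependent enzyme of the cycle, Idh3a, Idh3b and Idh3g, had mean effects of 0.02 ± 0.11, 0.12 ± 0.09 and 0.06 ± 0.09. Idh3b lies 399.6 kb from Slc4a11 on chromosome 2.

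The 5 genes from 2-oxoglutarate to succinate had positive values in both sexes. For the mean effect, 4 of them had an unadjusted p under 0.05, all above 0. The share above 0 at that p was 14.6% of all genes and 22.7% of genes of at least 10 CPM. Suclg1, the alpha subunit of succinyl-CoA synthetase, had 0.27 ± 0.12. Its GTP-forming beta subunit Suclg2 had 0.27 ± 0.11 and its ATP-forming beta subunit Sucla2 had 0.25 ± 0.10. Suclg2 had 0.40 ± 0.15 in males (adjusted p = 0.138, limma), the third smallest p of the 32 genes there. Dlst, the succinyltransferase of the 2-oxoglutarate dehydrogenase complex, had 0.15 ± 0.06, and Ogdh had 0.06 ± 0.09. Adjusted p-values of these 5 genes for the mean effect were 0.127 or more (limma).

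From fumarate to oxaloacetate, Mdh2 had almost equal values in males (0.30 ± 0.14) and females (0.31 ± 0.14). Its mean effect was 0.30 ± 0.10 (interval 0.09 to 0.52), a level 1.23 times that of WT, with an adjusted p of 0.0735 (limma). Its estimated levels were 88.9 CPM in WT males, 109 in KO males, 97.4 in WT females and 120 in KO females. Mdh1 had 0.02 ± 0.19 in males and 0.42 ± 0.19 in females, with an interaction of 0.40 ± 0.27. Fumarate hydratase, Fh1, had a mean effect of 0.18 ± 0.12.

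Read over the whole list, values above 0 were common and small. For the mean effect, 26 of 32 were above 0, with a median of 0.14, and all 10 with an unadjusted p under 0.05 were above 0. Over all genes, the median was -0.01, 48.1% were above 0, 14.6% were above 0 with an unadjusted p under 0.05, and 13.3% were below 0 with one. Among the 8801 genes with a mean of at least 10 CPM, the class that holds 31 of the 32 genes, the median was 0.07 and 63.1% were above 0, with 22.7% above 0 and 11.2% below 0 at an unadjusted p under 0.05. Medians of the 32 genes were 0.12 in males and 0.19 in females, with 25 (78.1%) and 28 (87.5%) above 0. In the same class of 8801 genes, the medians were 0.06 and 0.07, with 60.5% and 62.7% above 0. Centred on the median of that class, the medians of the 32 genes were 0.05 in males, 0.12 in females and 0.08 for the mean effect. Values were above 0 in both sexes for 22 genes (68.8%, against 32.7% of all genes) and below 0 in both for Pdp1. That share was not computed for the class of at least 10 CPM, where values lean above 0 in each sex. The sexes had opposite signs for 9 genes, which is 28.1%, against 32.6% of all genes. Of these 9 genes, 6 (Pdk1, Pdk2, Pdpr, Mpc1, Pcx and Idh2) were negative in males and positive in females. Over all 15838 genes, 2863 had these signs, so the 6 of 32 do not set the list apart. Pcx was among the 6 with only -0.005 ± 0.11 in males.

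**Figure D4:**
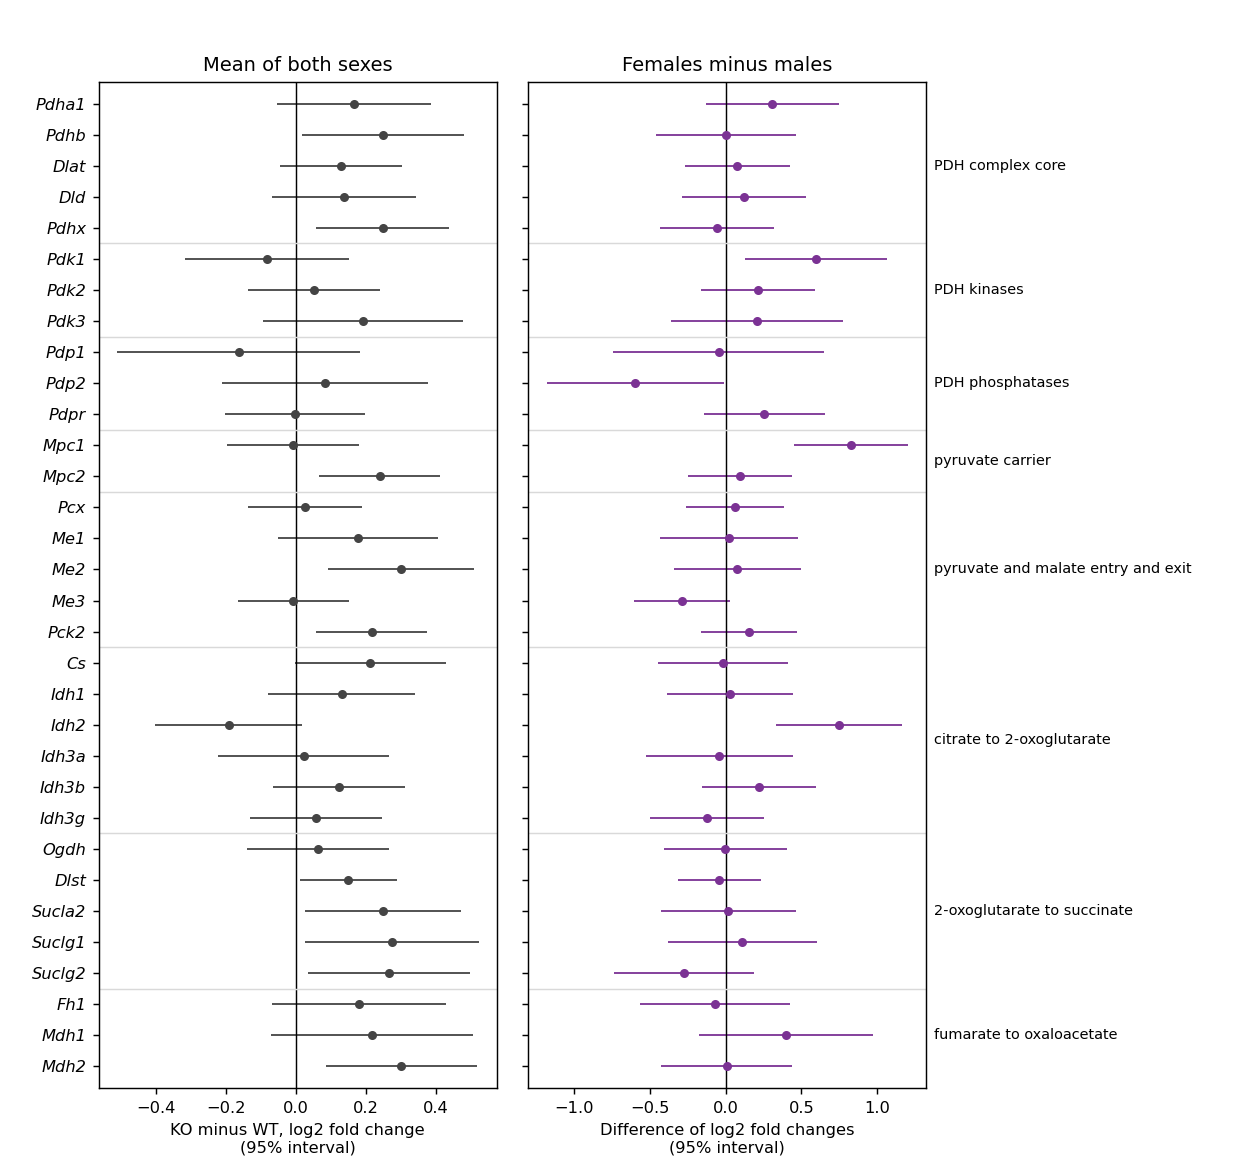
Mean effect of both sexes (left) and the effect in females minus that in males (right) for the 32 genes, as log2FC with 95% intervals. On the left, 26 of 32 points lie above 0. On the right, the intervals of Mpc1, Idh2 and Pdk1 lie above 0 and that of Pdp2 below it.

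Between the sexes as a whole, 0 of the 32 genes were called and 0 had an unadjusted p under 0.05 (limma), beside 0.0316% of all genes called and 3.74% at that unadjusted p. The largest value of the 32 was 0.19 ± 0.11 for Pdhx, female minus male, with an adjusted p of 0.882 (limma). The next smallest p-values were those of Mpc2 (0.14 ± 0.10) and Idh1 (0.14 ± 0.10), with the same adjusted p. The intervals of all 32 genes reached no further than -0.33 (Pdpr) and 0.52 (Pdp1).

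Other genes of the same pathway were taken from a list, of which 32 are reported and 29 had a value. In males 1 of 29 was called, in females 0 (limma, 6 at an unadjusted p under 0.05), for the mean effect 4, and for the interaction 0 (limma, 1 at an unadjusted p under 0.05). The shares called of all genes were, as above, 5.47%, 1.42%, 9.07% and 0.543%. Higher for the mean effect were Acly, the citrate lyase of the cytosol (0.33 ± 0.08; adjusted p = 0.0178, limma) and Lipt1, which attaches the lipoate cofactor of PDH (0.87 ± 0.23; adjusted p = 0.0354). Lipt1 was low, at 1.73 CPM. Lower for the mean effect were Dhtkd1, a relative of Ogdh (-0.45 ± 0.10; adjusted p = 0.0195, limma), and D2hgdh, which oxidizes D-2-hydroxyglutarate (-0.42 ± 0.11; adjusted p = 0.0322). Dhtkd1 was also called in males, at -0.61 ± 0.15 (adjusted p = 0.0276, limma). Subunits of succinate dehydrogenase, the enzyme between succinate and fumarate, were not called, with mean effects of 0.26 to 0.39 for Sdha, Sdhb, Sdhc and Sdhd.

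All 13 listed regulators of these genes had a value. In males 1 was called, in females 0, for the mean effect 2 and for the interaction 0 (limma). Of all genes, 5.47%, 1.42%, 9.07% and 0.543% were called, in that order. Ppargc1a, the coactivator PGC-1alpha of mitochondrial genes, fell in males by 1.48 on the log2 scale (SE 0.28; adjusted p = 0.00961, limma), and its mean effect was -0.92 ± 0.18 (adjusted p = 0.00994). In females it had -0.37 ± 0.24, and its interaction of 1.10 ± 0.37 was not called (adjusted p = 0.251, limma). It was low, at 4.53 CPM. Hif1a, the hypoxia-inducible factor that is known to act on Pdk1, was called higher, with a mean effect of 0.48 ± 0.12 (adjusted p = 0.0291, limma). The other 11 regulators were not called in males, in females, for the mean effect or for the interaction.

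**Figure D5:**
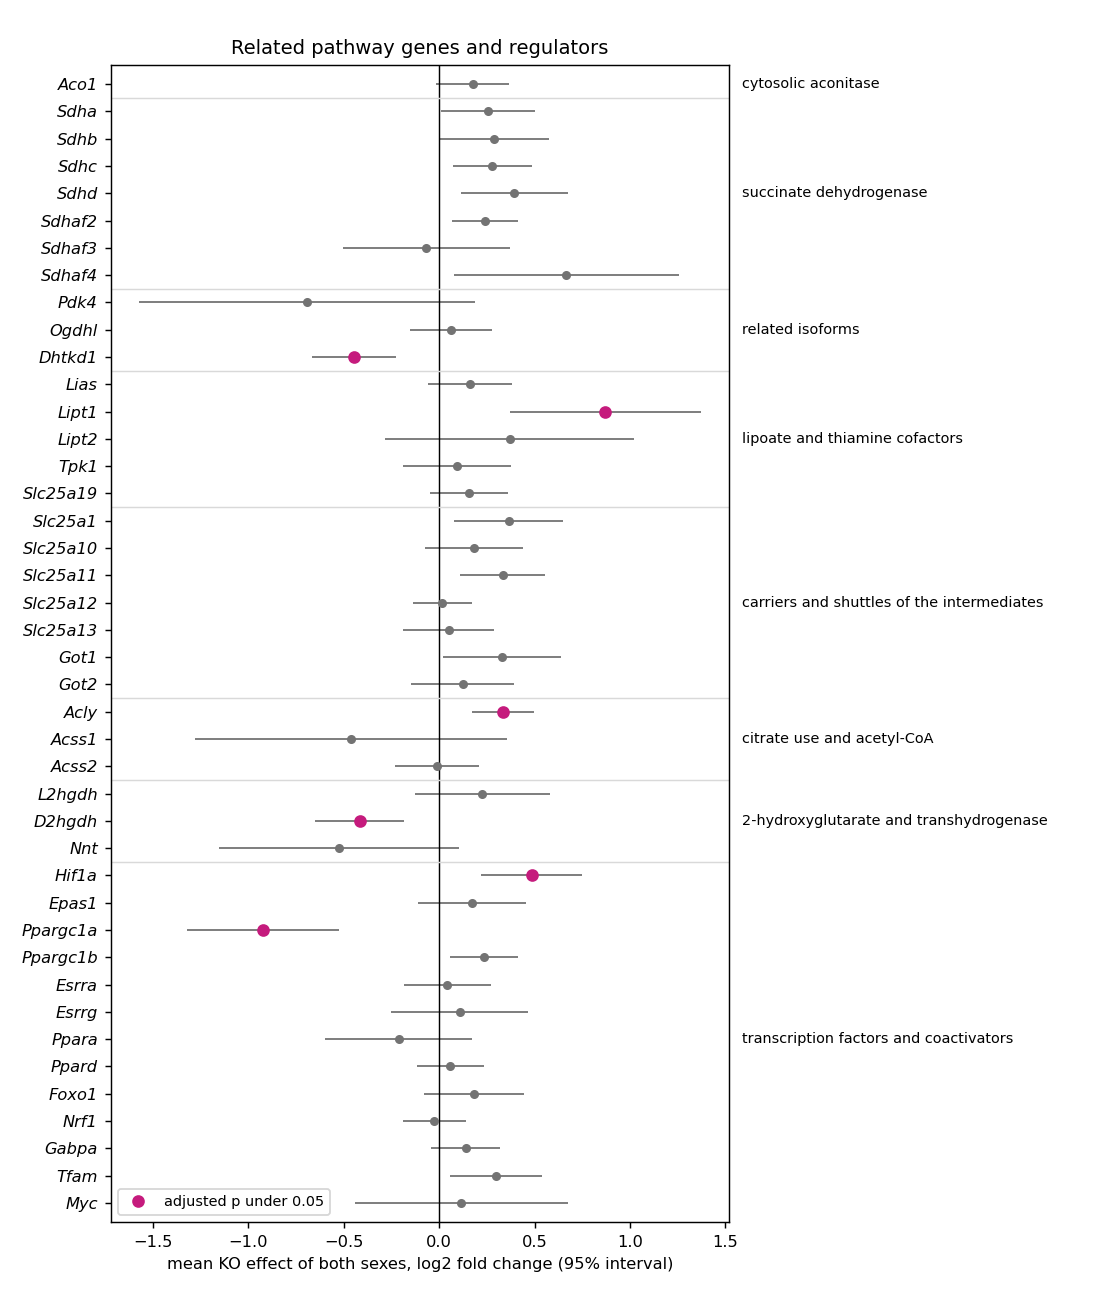
Mean KO effect of both sexes for 29 related pathway genes and 13 regulators, as log2FC with 95% intervals; filled colored points have an adjusted p under 0.05. Acly, Lipt1 and Hif1a lie above 0, and Dhtkd1, D2hgdh and Ppargc1a below it.

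Markers of other cells on the membrane also differed with genotype. In bulk RNA, fewer cells of a type and less RNA per cell cannot be told apart. Of 7 stroma markers with a value, 5 (Kera, Lum, Dcn, Col1a1 and Col1a2) were called lower for the mean effect. Among all 15838 genes, 824 were called lower for it. Cd34 of the stroma list was called higher in females (0.72 ± 0.15, adjusted p = 0.0354, limma). The list summed to 16300 CPM in WT males, 11600 in KO males, 16500 in WT females and 9060 in KO females. The sum of 8 epithelium markers was 1560, 1010, 1450 and 787 CPM in the same order. Most of it was Aldh3a1, the 1 epithelium marker called lower for the mean effect, and the other 7 summed to 183, 94.0, 78.4 and 36.9 CPM, with Trp63 above WT in both sexes but not called. The sum of 5 iris pigment markers was 34.1, 13.7, 44.6 and 6.05 CPM, and 2 of them (Tyr and Dct) were called lower for the mean effect. Lens markers summed to 38.2, 14.5, 14.1 and 5.70 CPM, but 0 of 6 had an unadjusted p under 0.05 for the mean effect (limma). The 5 leukocyte markers summed to 23.5, 14.0, 16.4 and 23.5 CPM, and none of the 5 was called. Their sum was lower in KO males and higher in KO females, as were Mpc1, Idh2 and Pdk1. These directions were not particular to leukocyte markers. On the endothelium list, Atp1b1 (-0.22 ± 0.14 in males, 0.36 ± 0.14 in females) and Col8a1 (-0.19 ± 0.13, 0.12 ± 0.13) had them too, not called. The rest of that list did not. Sums of nerve markers (58.9 to 61.6 CPM) and muscle markers (223 to 237 CPM) moved little, although Myh1 and Myh2 of the latter were called higher. The part of these cells in the values of the 32 genes was not tested.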

How the data were processed

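The authors aligned paired-end reads of stranded total RNA to GRCm38 with HISAT2, normalized CPM by TMM and ran limma-voom on 2 genotypes by 2 sexes with an interaction term; versions, counter and annotation are not given in the sources used here. The 3 deposited tables hold, for 15838 genes, these comparisons: log2 fold change and mean log2 CPM, the moderated t and B (each a score) and p-values with their adjusted form. These deposited values were used as the source of every result.

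SE was log2FC divided by t, with 13.77 degrees of freedom (14.58 for the sex table, another fit). The ratio of interaction to genotype SE was 1.42 at the median gene and 8.04 to 8.29 for 4 Y-linked genes, but 1.04 for Xist, so the genotype coefficient is the male effect. Adding the interaction to it gives the female effect, whose squared SE is the difference of theirs. The mean effect averages the male and female effects, and its SE is the interaction SE divided by 2. P-values of the female and mean effects, marked limma like the others, were computed here from these values with 13.77 degrees of freedom. Group levels combine both fits and have no error. Precision rests on SE, since depth is unknown. Positions and exon lengths came from GENCODE M21, promoters from RefSeq. The derivation was tested on simulated data. Python 3.11.15, pandas 2.3.3 and scipy 1.17.1 were used.

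Genes named with full statistics had an adjusted p under 0.05 in a contrast or were among the 3 smallest p-values of one where fewer passed. The 32 genes and the lists were chosen with earlier results of these data known. Of the related genes, 1 is not reported here. Alternatives were other adjustments, filters at 1 and 10 CPM, centring on the median of all genes, and a fold threshold.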

Additional observations from a re-analysis of the deposited data

How the results depend on the processing

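Counts of called genes among the 32 moved with the adjustment. In males the count of 1 became 0 under Benjamini-Yekutieli, Holm, a single adjustment over the males, females and interaction contrasts, and an added log2FC threshold of 1, and became 2 (Idh2 and Mpc1) where 8801 genes of at least 10 CPM were tested. For the interaction the count of 0 became 1 (Mpc1) with that filter and with the single adjustment. Counts for females, the mean effect and sex were 0 under every alternative run. No gene named with full statistics changed sign in the contrast that named it. Signs of the other values were not followed. Some were small: Pcx in males (-0.005) was smaller in size than the median of all genes there (-0.02), on which values were centred. The limma values were recalculated here under each alternative. The adjusted p so obtained (from limma) ran from 0.0224 to 1 for Idh2 in males. It ran from 0.027 to 1 for Mpc1 for the interaction, and from 0.053 to 1 for Me2 for the mean effect. The single adjustment was not run for the mean effect, which is not one of its 3 contrasts. One alternative, centring on the median of genes of at least 10 CPM, was chosen after seeing the data. It lowered the median log2FC of the 32 genes from 0.14 to 0.08 for the mean effect, from 0.12 to 0.05 in males, from 0.19 to 0.12 in females and from 0.08 to 0.05 for sex. Leaving out each replicate was not run, since the tables hold no values per library. No paired analysis was possible because the tables hold no columns per library. With depth unknown, the SE is the only limit on detectable changes.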
